A study of Mus musculus with 40 samples.

Results

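A set of 9 genes that mark the formative and primed epiblast, Fgf5, Fgf15, Enpp2, Otx2, Pou3f1, Sox3, Zic2, Zic5 and Lef1, were followed through 40 total RNA libraries of mouse embryonic stem cells (mES cells) and epiblast-like cells (EpiLCs) that carried or lacked lamins and LBR, the lamin B receptor of the inner nuclear membrane. The 9 genes were taken by name from a count table of 56748 genes and matched to their Ensembl identifiers through the GENCODE annotation. All 9 were among the 23399 genes with enough counts to be tested. Each of them rose from mES cells to EpiLCs in every genotype. At the naive stage Sox3 was lower in the lamin mutants and Otx2 in the LBR knockout. Sox3 was also lower in the LBR knockout against the 4 wild type libraries of similar sequencing depth (log2 fold change -1.34). Against all 8 wild type libraries its difference was under 2-fold (-0.94). Fgf5 was lower in all mutants, but from a very low level, with 28 counts over the 8 naive wild type libraries. In cells that lacked lamins but carried LBR, Fgf5 no longer passed when only the groups compared entered the model.

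Naive pluripotent cells, the in vitro counterpart of the inner cell mass, pass through a formative state before they become competent to form the germ layers as primed epiblast. Withdrawal of MEK and GSK3 inhibition and exposure to FGF and Activin starts the transition in culture, and a group of transcription factors and signals is then switched on. Otx2 encodes a homeodomain factor that directs formative enhancers, often together with the POU factor OCT6 encoded by Pou3f1. Sox3 encodes a SOXB1 factor related to SOX2, and Zic2 and Zic5 encode zinc finger factors of the ZIC family. Lef1 encodes a partner of β-catenin that is itself a known target of WNT signalling. Fgf5 and Fgf15 encode secreted FGF ligands, of which Fgf5 is the classical marker of the postimplantation epiblast, and Enpp2 encodes autotaxin, a secreted enzyme that makes lysophosphatidic acid.

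Wild type (WT) cells were compared with LBR knockout cells (LBRKO), with lamin triple knockout cells in which Lmna, Lmnb1 and Lmnb2 were targeted (TKO) and with quadruple knockout cells in which Lbr was disrupted on the TKO background (QKO). Naive mES cells were grown with 3 µM CHIR-99021, a GSK3 inhibitor, 1 µM PD0325901, a MEK inhibitor, and LIF. EpiLCs received 20 ng/mL FGF and 12 ng/mL Activin A in place of these, and both were collected at 48 h. There were 8 WT libraries and 4 of each mutant at each stage, each from its own culture well, so that the spread between libraries is a spread between wells. QKO cells were 1 clone, the labels do not say which of several LBRKO clones a library came from, and the study describes abnormal chromosome numbers in its TKO cells and in part of its WT cells. The study also describes fewer surviving EpiLCs in the mutants, and fewer cells of a type and less RNA per cell cannot be told apart in these bulk libraries. The labels allow either of 2 coatings for the dishes without saying which library had which.

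Counts assigned to genes fell into separate ranges at both stages. WT replicates 1 to 4, TKO and QKO libraries held 22594640 to 33574993 counts and WT replicates 5 to 8 and LBRKO libraries 39434595 to 48863506 counts. The labels name no batch, but the division runs through the WT group and between the mutants, so the main differences from WT are given against all 8 WT libraries and against the 4 WT libraries of the same depth range (WT 5 to 8 for LBRKO, WT 1 to 4 for TKO and QKO). A value with no other mark is against all 8. Lmnb1 was 480.8 to 545.8 CPM in WT mES cells and 8.26 to 8.82 CPM in TKO and 11.95 to 15.5 CPM in QKO mES cells. Reads of Lmna remained, at 14.1 to 17.0 CPM in TKO and 17.1 to 21.0 CPM in QKO mES cells against 45.1 to 71.5 CPM in WT, and in EpiLCs the QKO range of 6.95 to 9.43 CPM overlapped the WT range of 9.28 to 13.03 CPM. A count over the whole gene does not show which part of it was read. For Lbr the range was 346.7 to 407.0 CPM in WT and 145.2 to 274.3 CPM in LBRKO at the naive stage, while in EpiLCs the LBRKO range of 196.2 to 403.1 CPM overlapped the WT range of 364.4 to 512.6 CPM. The summed level of 12 naive markers was 4962 to 5755 CPM in WT mES cells and 186.8 to 273.7 CPM in WT EpiLCs, as the labelled stages would have it. CPM, counts scaled for depth, use TMM-adjusted library sizes throughout, errors are SD for levels and SE for log2 fold changes, and a gene rose or fell where its adjusted p (edgeR) was under 0.05 and its fold change over 2.

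Zic2 and Zic5 are neighbours on chromosome 14 and run away from each other. Their start sites lie 8738 bp apart in GRCm39, and they had the most similar profile of any 2 members, as described further below. The 250 bases upstream of both start sites are printed for that reason. The same stretch of Lef1 follows because it was the only member with a match to any of 6 short motifs. The Zic2 stretch is chr14:122711577-122711826 on the plus strand, that of Zic5 chr14:122703090-122703339 on the minus strand and that of Lef1 chr3:130903669-130903918 on the plus strand (GRCm39, canonical start sites of GENCODE M39). All are written 5′ to 3′ on the strand of the gene, with the motif match in capitals.
Zic2: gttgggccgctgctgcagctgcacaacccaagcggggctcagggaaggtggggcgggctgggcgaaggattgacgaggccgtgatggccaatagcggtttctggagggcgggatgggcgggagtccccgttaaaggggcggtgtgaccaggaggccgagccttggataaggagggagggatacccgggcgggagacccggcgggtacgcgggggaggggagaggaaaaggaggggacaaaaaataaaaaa
Zic5: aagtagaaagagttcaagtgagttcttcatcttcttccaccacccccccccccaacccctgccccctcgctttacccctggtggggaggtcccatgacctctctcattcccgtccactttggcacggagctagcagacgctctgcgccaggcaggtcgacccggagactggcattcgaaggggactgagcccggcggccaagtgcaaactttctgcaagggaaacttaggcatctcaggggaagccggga
Lef1: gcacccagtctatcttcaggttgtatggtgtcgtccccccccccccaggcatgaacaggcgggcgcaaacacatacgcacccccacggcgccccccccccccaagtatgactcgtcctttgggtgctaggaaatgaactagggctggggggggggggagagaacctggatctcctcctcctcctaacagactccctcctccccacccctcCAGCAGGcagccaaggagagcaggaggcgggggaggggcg
CpG dinucleotides numbered 18 in the Zic2 stretch, 11 in that of Zic5 and 9 in that of Lef1, against a median of 8 over 21757 promoters of protein-coding genes of the same length. The motifs were searched as exact letters on both strands. CAGCAGG, a core of ZIC sites, was found 40 to 34 bases before the Lef1 start site and in 8.02% of all promoters. No member held CTTTGAT (TCF/LEF, 2.85% of all promoters), TAATCC (OTX, 7.0%), ATGCAAAT (octamer, 1.49%), ACAAAGG (SOX, 4.74%) or CCGGAAG (ETS, 6.89%) in this window. TCF/LEF and SOX motifs share the letters CAAAG. The Lef1 gene overlaps the antisense lncRNA Lef1os1, which reached a mean of 2.39 CPM in WT EpiLCs.

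The secreted factors went from near silence to high levels when WT mES cells became EpiLCs. Fgf5 lay between 0.0226 and 0.194 CPM in the 8 WT mES libraries (median 0.0797) and between 132.3 and 156.8 CPM in the 8 WT EpiLC libraries (median 146.6). Fgf15, the mouse ortholog of human FGF19, went from 0.0654 to 0.374 CPM (median 0.112) to 37.1 to 57.0 CPM (median 41.7). Enpp2 had counts in 5 of the 8 WT mES libraries, with at most 0.109 CPM, and held 59.9 to 83.8 CPM in WT EpiLCs (median 72.3). The log2 fold changes were 10.53 ± 0.25 for Fgf5, 8.25 ± 0.29 for Fgf15 and 10.91 ± 0.45 for Enpp2, and the stages did not overlap for any of the 3.

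Transcription factors started from higher levels and rose by less. Pou3f1 went from 0.905 to 1.69 CPM (median 1.28) in WT mES cells to 189.1 to 253.6 CPM (median 227.8) in WT EpiLCs, a log2 fold change of 7.44 ± 0.12. Lef1 rose by 5.12 ± 0.25, Sox3 by 4.72 ± 0.17 and Otx2 by 3.74 ± 0.24 on the log2 scale. The ZIC genes were the members with the highest naive level, with 29.0 to 55.7 CPM for Zic2 and 18.7 to 32.6 CPM for Zic5, and with all WT libraries they rose least (with WT 1 to 4 alone Otx2 rose by 2.86 and Zic2 by 2.96). Zic2 reached 192.7 to 255.3 CPM in WT EpiLCs (log2 fold change 2.61 ± 0.10) and Zic5 87.6 to 142.7 CPM (2.42 ± 0.10). Of all genes tested, 31.1% passed the thresholds in this comparison (29.9% with WT 1 to 4 alone and 29.7% with WT 5 to 8 alone), and 9 of 9 members rose with either set. The median log2 fold change was 5.12 over the members and 0.07 over all genes.

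All 9 members also rose in each mutant, against a share of called genes of 26.5% in LBRKO, 30.3% in TKO and 30.3% in QKO. Fgf5 had no count in the 4 LBRKO mES libraries and 15221 in the 4 LBRKO EpiLC libraries, which is at least 5060-fold higher against a floor of 3 counts over the group. In TKO and QKO it had 1 count over the 4 mES libraries of each genotype and 17450 and 22590 counts in EpiLCs. Enpp2 had no count in TKO mES cells and 4501 in TKO EpiLCs (at least 1631-fold higher). Among the members with counts in every group, the log2 fold change of Pou3f1 was 6.66 ± 0.15 in LBRKO, 8.40 ± 0.21 in TKO and 8.99 ± 0.27 in QKO. Otx2 varied most in the size of its rise, with 6.78 ± 0.55 in LBRKO, 2.00 ± 0.33 in TKO and 4.34 ± 0.35 in QKO. Zic2 rose by 2.84 to 2.99 and Zic5 by 2.38 to 2.63 in the mutants.

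**Figure D1:**
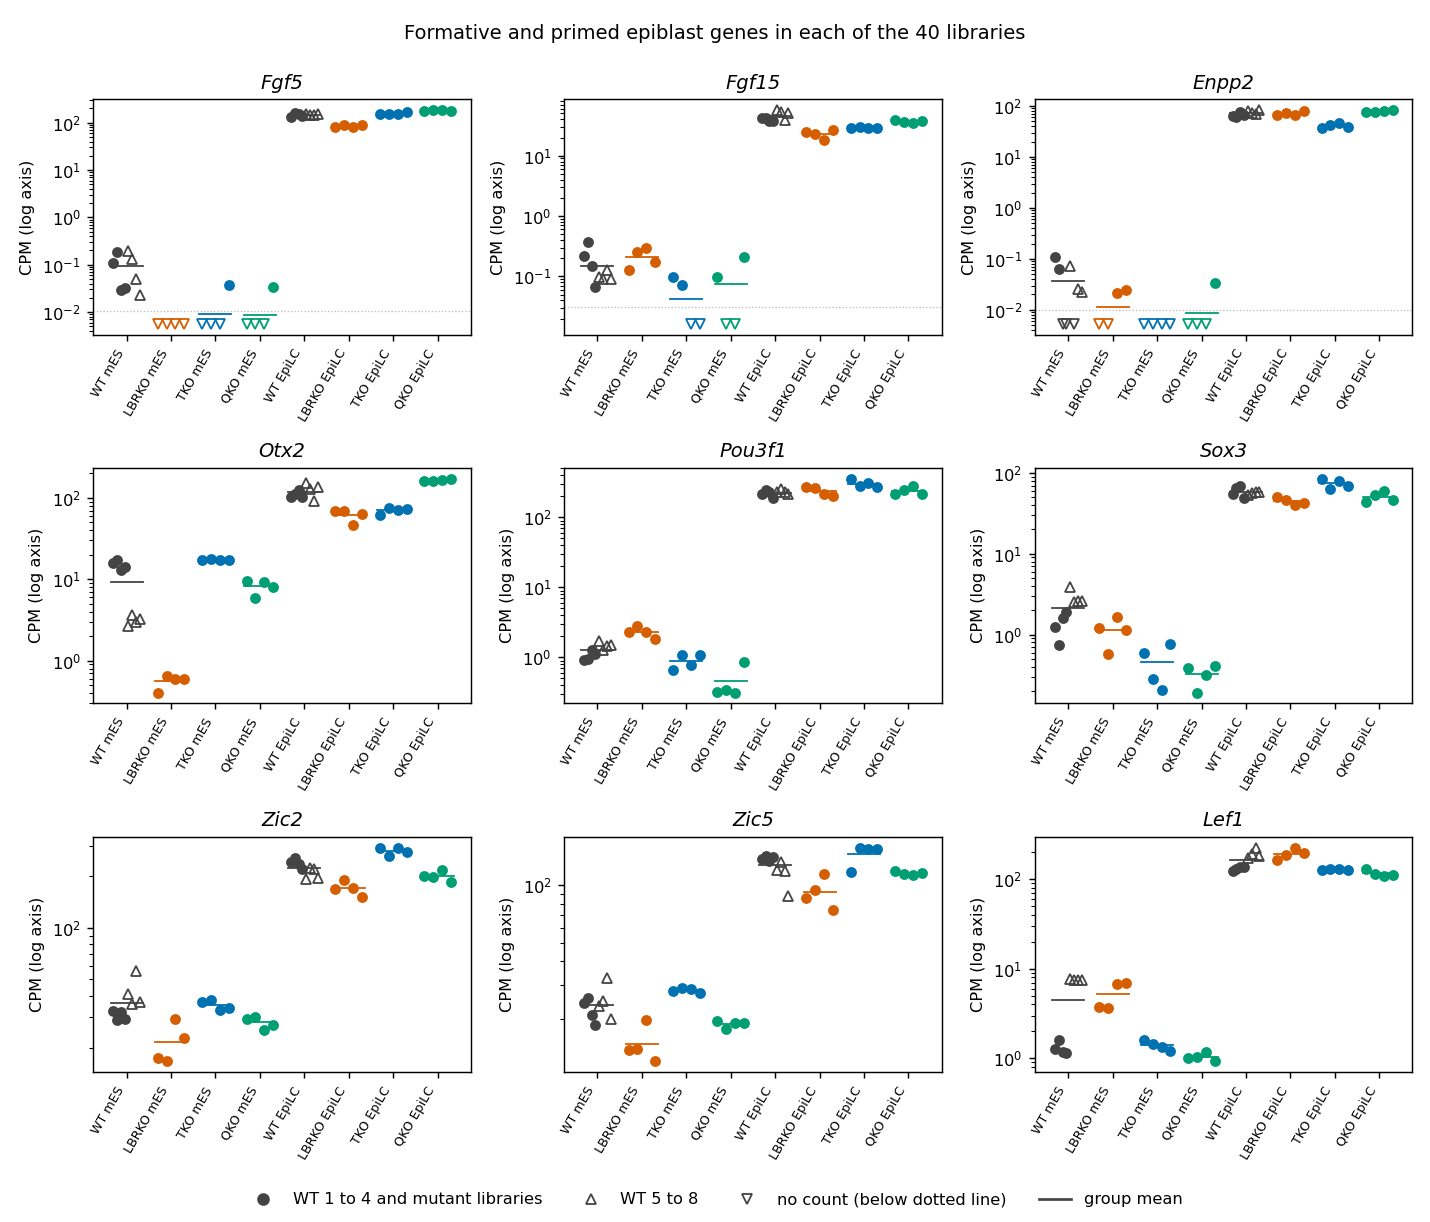
CPM of the 9 members in each of the 40 libraries on a log axis, 1 panel per gene, with filled circles for WT 1 to 4 and mutant libraries, open upward triangles for WT 5 to 8, open downward triangles below a dotted line for libraries without a count and short lines for group means. Each gene sits higher in all EpiLC libraries than in all mES libraries, and Otx2 and Lef1 fall into 2 clusters within WT mES cells.

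Other genes of the passage were counted from lists of 7 to 14 genes tested per list. Of 14 further formative genes, 12 rose in WT (10 with WT 5 to 8 alone) and none fell, with Pim2 at 4.72 ± 0.11, Grhl2 at 4.63 ± 0.09 and the de novo methyltransferases Dnmt3b at 4.32 ± 0.08 and Dnmt3a at 4.04 ± 0.07. All 12 naive genes fell, among them Prdm14 (-9.03 ± 0.30) and Tbx3 (-6.87 ± 0.17). Target genes of FGF and ERK signalling gave 4 rises and no fall of 10, led by Dusp4 (4.42 ± 0.25) and Dusp6 (4.06 ± 0.21). With WT 1 to 4 alone 5 of them rose and 0 fell, and with WT 5 to 8 alone 4 rose and 1 fell. Targets of β-catenin gave 2 rises and 4 falls of 9, with Sp5 at -8.95 ± 0.89 and Cdx1 at -6.70 ± 0.41, so that Lef1 (5.12) moved the other way from these. Neural genes gave 6 rises of 9 tested, endoderm genes 4 rises and 2 falls of 10, and mesendoderm genes 1 rise and 3 falls of 7. With WT 5 to 8 alone there were 5 falls of β-catenin targets, 7 neural rises and 3 endoderm rises. With WT 1 to 4 alone there was 1 endoderm fall, and mesendoderm genes gave 2 rises and 2 falls.

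Relatives of the members in the same gene families did not share one direction. Of 16 tested, 7 rose and 3 fell in WT. Zic1, at 0.0796 CPM in mES cells, rose by 3.50 ± 0.37. Sox2, the core pluripotency factor closest to Sox3, went the other way (-2.48 ± 0.07). Beside the rise of Otx2, Otx1 averaged 2.73 CPM in naive WT cells and 0.859 CPM in WT EpiLCs. Enpp3 rose by 3.86 ± 0.10 beside Enpp2.

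Within WT mES cells the 2 sets of replicates differed in 4 of the 9 members by more than their spread. Otx2 was 15.8, 17.4, 13.1 and 14.2 CPM in WT 1 to 4 and 2.68, 3.64, 2.97 and 3.25 CPM in WT 5 to 8, which is 4.82-fold between the means. Lef1 went the other way, with 1.27, 1.62, 1.19 and 1.14 CPM in WT 1 to 4 and 7.69, 7.47, 7.56 and 7.55 CPM in WT 5 to 8 (5.80-fold). Sox3 was 1.23, 0.748, 1.61 and 1.93 CPM in WT 1 to 4 and 3.89, 2.55, 2.64 and 2.58 CPM in WT 5 to 8 (2.11-fold), and Zic2 was 1.38-fold higher in WT 5 to 8. The sets did not overlap for any of these 4 genes, and they overlapped for the other 5. Over all genes tested, 21.9% did not overlap between the sets and 4.53% were also over 2-fold apart, beside 4 and 3 of the 9 members. The split of Otx2 was known when these genes were chosen, and without it the counts were 3 and 2 of 8.

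In WT EpiLCs the gap had closed for Otx2, whose sets were 101.4 to 125.3 CPM and 92.6 to 151.5 CPM. Lef1 still did not overlap (121.4 to 136.7 CPM against 170.4 to 221.4 CPM, 1.46-fold), and neither did Zic5 (1.21-fold higher in WT 1 to 4). Those 2 of 9 members stood against 13.7% of all genes, and none of the 9 was over 2-fold apart, against 1.86% of all genes. The rise of Otx2 was 2.86 ± 0.11 with WT 1 to 4 and 5.34 ± 0.14 with WT 5 to 8, and that of Lef1 6.64 ± 0.18 and 4.65 ± 0.13.

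Other gene lists were split in the same WT mES libraries too. Against the 21.9% of all genes, the sets did not overlap for 10 of 14 further formative genes, 7 of 16 family relatives and 6 of 9 β-catenin targets. The same held for 5 of 10 FGF and ERK targets, 5 of 12 naive, 4 of 9 neural, 3 of 7 mesendoderm and 1 of 10 endoderm genes. All 6 of the β-catenin targets were higher in WT 5 to 8, with Sp5 at a mean of 16.8 CPM in WT 1 to 4 and 95.8 CPM in WT 5 to 8, Cdx1 at 12.5 and 44.4 CPM and Axin2 at 44.9 and 115.0 CPM. Of the 5 FGF and ERK targets 4 were higher in WT 5 to 8, with Egr1 at 36.9 and 325.1 CPM and Spry4 at 5.29 and 14.3 CPM. These means hide a wide spread between libraries. Over all 8 WT mES libraries Egr1 was 181.0 ± 303.8 CPM and Spry4 9.81 ± 8.15 CPM. The summed FGF and ERK targets had a median of 1047 CPM and a maximum of 2109 CPM there. Etv4 was lower in WT 5 to 8, and Etv4 and Etv5 were also counted among the further formative genes. Depth, replicate number and these levels moved together, and their part in the difference of Otx2, Lef1 and Sox3 was not tested.

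**Figure D2:**
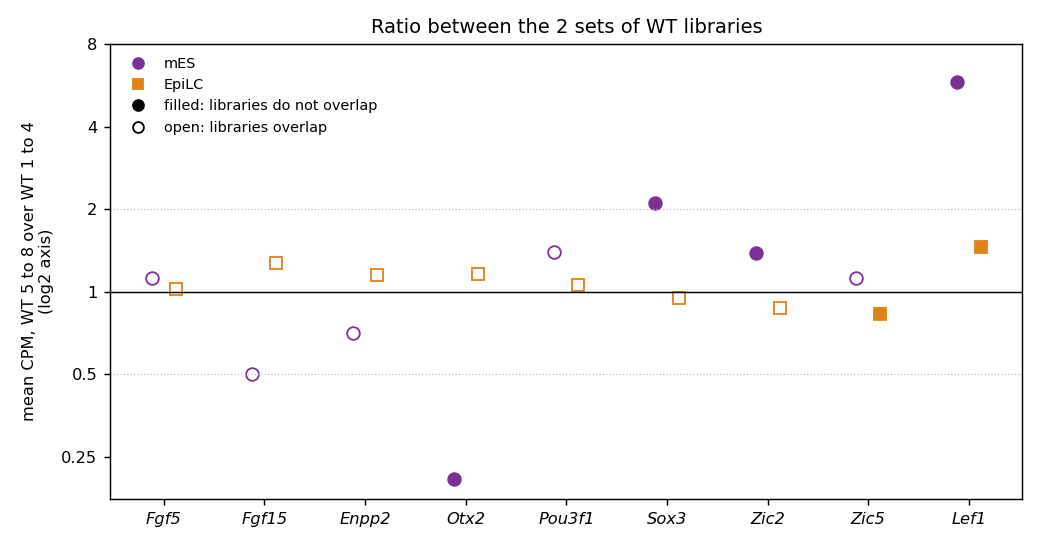
Mean CPM of WT replicates 5 to 8 divided by that of WT replicates 1 to 4 for each member, on a log2 axis, with circles for mES cells and squares for EpiLCs, filled where the libraries of the sets did not overlap. Dotted lines mark 2-fold, and Otx2 (4.82-fold lower in WT 5 to 8), Lef1 (5.80-fold higher) and Sox3 (2.11-fold higher) lie outside them in mES cells only.

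Loss of LBR in naive cells was accompanied by lower Otx2 and Fgf5. Otx2 was 0.405, 0.644, 0.594 and 0.601 CPM in the 4 LBRKO mES libraries, below every WT library of either set. Its log2 fold change was -3.99 ± 0.53 against all WT libraries (adjusted p = 7.88e-09) and -2.49 ± 0.23 against WT 5 to 8 (adjusted p = 6.87e-11). Fgf5 had no count in LBRKO mES cells and 28 counts over the 8 WT libraries, at least 5.64-fold lower against the floor of 3 counts (adjusted p = 2.33e-05, and 7.3e-05 against WT 5 to 8). These were 2 of the 9 members, with none higher, where 6.31% of all genes passed. Against WT 5 to 8, 3 members were lower and 5.22% of all genes passed.

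Sox3 was the third of these. It was 1.21, 0.575, 1.63 and 1.15 CPM in LBRKO mES cells, which overlapped WT 1 to 4 but lay below all of WT 5 to 8 (log2 fold change -0.94 ± 0.25 against all WT and -1.34 ± 0.21 against WT 5 to 8). Against all WT it passed without LBRKO mES replicate 3 (-1.17), WT mES replicate 1 (-1.01) or WT mES replicate 2 (-1.06). Zic2 was lower by less than 2-fold (-0.77 ± 0.12, adjusted p = 7.47e-06, and -0.98 ± 0.12 against WT 5 to 8), as was Zic5 (-0.68 ± 0.12 and -0.76 ± 0.14). Pou3f1 was the member with the opposite sign beyond the spread, at 2.32, 2.85, 2.33 and 1.85 CPM and above every WT library, by less than 2-fold (0.86 ± 0.16, adjusted p = 5.52e-05, and 0.66 ± 0.18 against WT 5 to 8). Lef1 lay at 3.71, 3.63, 6.73 and 6.88 CPM, a pair of libraries at each level, between the WT sets. Its log2 fold change was 0.18 ± 0.32 against all WT, 2.00 ± 0.19 against WT 1 to 4 and -0.53 ± 0.14 against WT 5 to 8, so its direction depended on the WT set. Fgf15 (0.56 ± 0.41) did not pass, and Enpp2 had 2 counts over LBRKO and 10 over WT mES cells.

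Some markers of other cells also differed in LBRKO mES cells. The summed level of 12 endoderm genes was 22.1 to 25.6 CPM in LBRKO mES cells and 9.81 to 12.5 CPM in WT mES cells, with 3 of 10 tested genes higher and 1 lower (4 and 1 against WT 5 to 8). That of 8 mesendoderm genes was 25.6 to 28.0 CPM against 14.2 to 18.5 CPM, with 1 of 7 tested genes higher against all WT and none against WT 5 to 8. That of 10 neural genes was 161.9 to 189.9 CPM against 168.7 to 198.8 CPM, with 2 of 9 tested genes higher and 3 lower (none and 2 against WT 5 to 8) and Pax6 at -2.51 ± 0.29 (-2.82 ± 0.31). Whether cells of these types were present, and their part in the lower Otx2 and Fgf5, was not tested.

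In TKO mES cells Sox3 and Fgf5 were lower than in WT. Sox3 was 0.595, 0.286, 0.206 and 0.767 CPM in TKO mES cells, with a log2 fold change of -2.27 ± 0.38 against all WT (adjusted p = 1.11e-06) and -1.60 ± 0.37 against WT 1 to 4 (adjusted p = 0.000796). The highest TKO library, at 0.767 CPM, lay just above the lowest WT library, at 0.748 CPM. Fgf5 had 1 count over the 4 TKO libraries against 28 over the 8 WT libraries, 11.4-fold lower with a 95% counting interval of 1.89 to 466.3 (adjusted p = 0.00304, and 0.0159 against WT 1 to 4). Its adjusted p reached 0.05 and no longer passed when only the groups compared entered the model. Otx2 was 17.3, 18.0, 17.5 and 17.4 CPM, near the upper end of WT 1 to 4 (0.21 ± 0.11 against these, and 0.98 ± 0.30 against all WT). Without any 1 of WT mES replicates 1 to 4 it passed as higher against the remaining WT libraries (1.08 to 1.19). Enpp2 had no count against 10 in WT, at least 1.36-fold lower (adjusted p = 0.0526), and its adjusted p lay between 0.0318 and 0.0494 without WT mES replicate 3, 4 or 6, WT EpiLC replicate 2 or 8 or TKO EpiLC replicate 3.

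Lef1 shows what the choice of WT libraries did. It was 1.59, 1.46, 1.33 and 1.21 CPM in TKO mES cells and passed as lower against all WT (-1.73 ± 0.45, adjusted p = 0.00216), whereas against WT 1 to 4 the log2 fold change was 0.09 ± 0.23. Fgf15, at 0.0991 and 0.0714 CPM in 2 libraries and without a count in the other 2, did not pass against all WT (-1.70 ± 0.82, adjusted p = 0.0698, and 0.0398 without TKO mES replicate 1) and passed against WT 1 to 4 (-2.17 ± 0.82, adjusted p = 0.0214). Pou3f1 (-0.54 ± 0.22, and -0.26 ± 0.27 against WT 1 to 4), Zic2 (-0.04 ± 0.12 and 0.21 ± 0.11) and Zic5 (0.24 ± 0.12 and 0.33 ± 0.12) did not pass. Against all WT, 3 of 9 members were lower and none higher, where 6.45% of all genes passed. Against WT 1 to 4 it was again 3, now Fgf5, Sox3 and Fgf15, where 5.63% passed. Of the β-catenin targets 3 of 9 were lower against all WT and none passed against WT 1 to 4. Of the FGF and ERK targets 5 and 1 of 10 were lower. The summed neural genes were 149.8 to 160.8 CPM against 168.7 to 198.8 CPM in WT, with 3 of 9 lower (3 lower and 1 higher against WT 1 to 4), and the endoderm genes 8.15 to 8.53 CPM against 9.81 to 12.5 CPM, with 2 of 10 lower (1 lower and 1 higher). Their part in the member levels was not tested.

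QKO mES cells had lower Sox3, Pou3f1 and Fgf5. Sox3 was 0.390, 0.192, 0.314 and 0.412 CPM, below every WT library (-2.72 ± 0.44 against all WT and -2.04 ± 0.42 against WT 1 to 4, adjusted p = 5.71e-08 and 3.7e-05). Pou3f1 was 0.325, 0.345, 0.314 and 0.858 CPM, also below every WT library (-1.47 ± 0.28 and -1.18 ± 0.33, adjusted p = 6.38e-06 and 0.00276). Fgf5 had 1 count against 28, 10.6-fold lower with a 95% counting interval of 1.76 to 434.7 (adjusted p = 0.00212, and 0.00943 against WT 1 to 4). Lef1, at 0.926 to 1.18 CPM, passed as lower against all WT (-2.16 ± 0.50) but not against WT 1 to 4 (-0.34 ± 0.25, adjusted p = 0.283).

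Otx2 in QKO mES cells lay between the WT sets, at 9.59, 5.94, 9.15 and 8.13 CPM. It was lower than WT 1 to 4 by less than 2-fold (-0.88 ± 0.12, adjusted p = 3.22e-07) and passed as higher against WT 5 to 8 (1.39 ± 0.15). Zic2 (-0.39 ± 0.12, and -0.13 ± 0.11 against WT 1 to 4), Zic5 (-0.34 ± 0.13 and -0.25 ± 0.12), Fgf15 (-0.81 ± 0.65 and -1.28 ± 0.66) and Enpp2 (1 count against 10) did not pass. In all 4 of 9 members were lower against all WT and 3 against WT 1 to 4, none higher, while 17.2% and 18.2% of all genes passed. Among the relatives Pou3f2, a brain POU factor, rose by 3.23 ± 0.25 (2.85 ± 0.28 against WT 1 to 4), while Pou3f1 fell. Of the further formative genes Grhl2 rose (2.56 ± 0.11) and Lin28b fell (-1.79 ± 0.17), and both passed against WT 1 to 4. The summed neural genes were 125.9 to 134.0 CPM against 168.7 to 198.8 CPM in WT, with 1 of 9 higher and 4 lower (1 and 2 against WT 1 to 4). The endoderm genes were 5.30 to 7.86 CPM against 9.81 to 12.5 CPM, with 1 of 10 higher and 4 lower under both, and their part in the member levels was not tested.

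Disruption of Lbr on the TKO background was accompanied by a single called change at the naive stage. Otx2 fell from TKO to QKO mES cells by 1.09 ± 0.36 on the log2 scale (adjusted p = 0.0263), 1 of 9 members where 6.21% of all genes passed. All 4 QKO libraries lay below all 4 TKO libraries, yet the call was lost without QKO mES replicate 2 (-0.97, adjusted p = 0.0871), QKO mES replicate 4 (-1.09, adjusted p = 0.0567) or TKO mES replicate 2 (-1.08, adjusted p = 0.0504). With WT 1 to 4 or WT 5 to 8 alone in the model, the log2 difference was again -1.09, with an SE of 0.12 and 0.14 and an adjusted p of 1.14e-08 and 2.11e-07. Lef1 (-0.43 ± 0.61) and Sox3 (-0.45 ± 0.55) did not pass. For Lef1 the SE was 0.25 with WT 1 to 4 or WT 5 to 8 alone (adjusted p = 0.218 and 0.221). All QKO libraries lay below all TKO libraries for Lef1. Pou3f1 was lower by just under 2-fold (-0.93 ± 0.32, adjusted p = 0.0269), and passed without QKO mES replicate 4 (-1.43), TKO mES replicate 1 (-1.05) or TKO mES replicate 3 (-1.0).

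**Figure D3:**
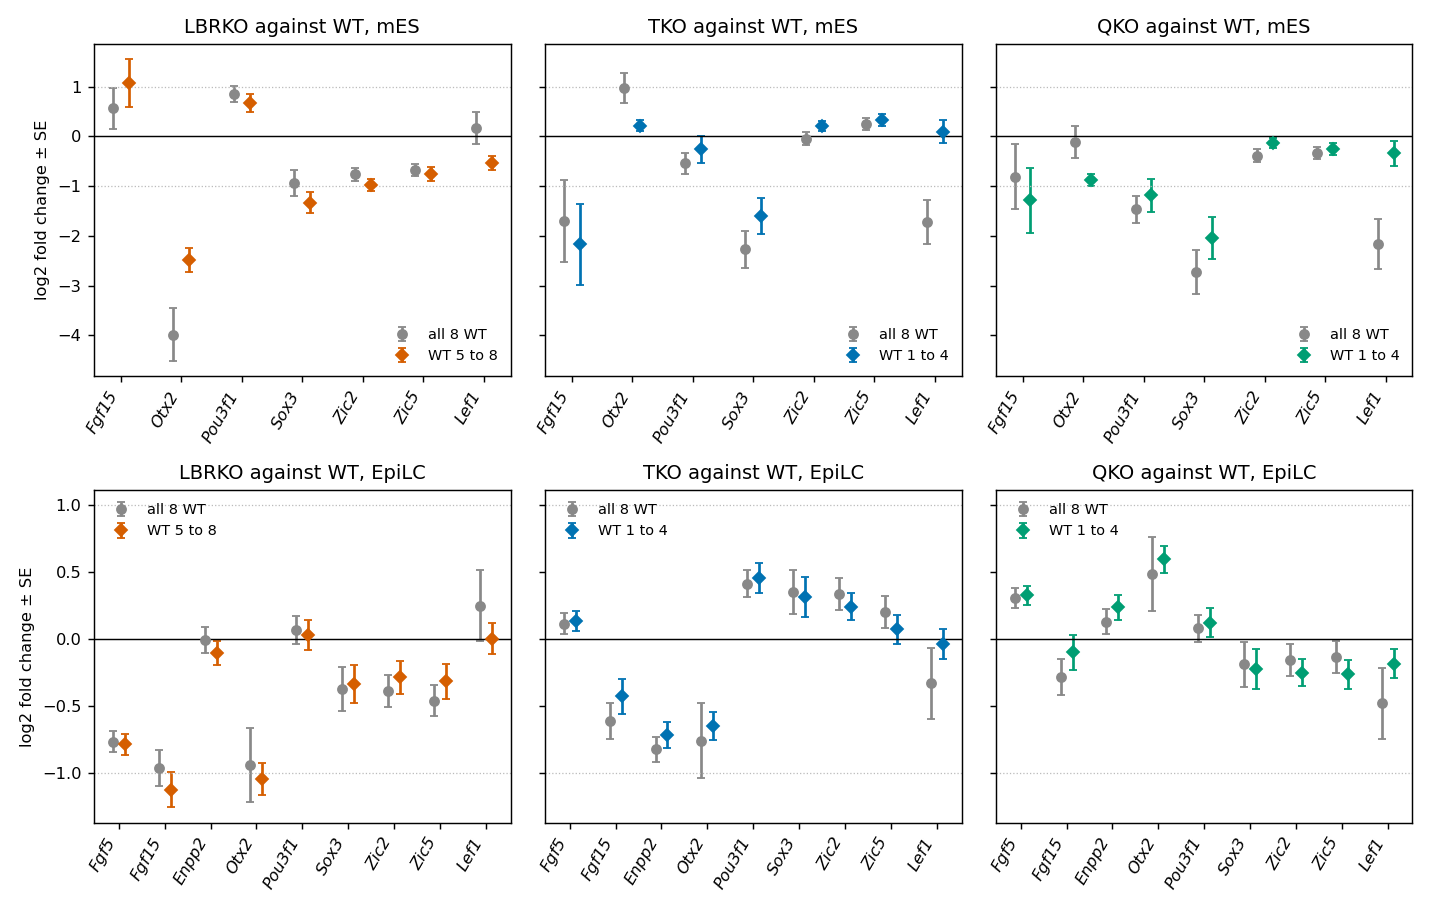
Log2 fold change ± SE of the members in each mutant against WT of the same stage, with circles for all 8 WT libraries and diamonds for the 4 WT libraries of the same depth range, and dotted lines at 2-fold. Fgf5 and Enpp2 are left out in mES cells, where mutant groups held 0 to 2 counts. In TKO and QKO mES cells Lef1 moves from below -1 to near 0 between the 2 WT choices, while Sox3 stays below -1 under both.

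In EpiLCs no member passed against all 8 WT libraries in any mutant, where 5.67% of all genes passed in LBRKO, 2.91% in TKO and 21.2% in QKO. Several members nonetheless differed by less than 2-fold and more than their spread. Fgf5 was 83.0, 90.2, 80.0 and 89.6 CPM in LBRKO EpiLCs, below every WT library (-0.77 ± 0.08, adjusted p = 1.08e-09, and -0.79 ± 0.08 against WT 5 to 8). In QKO EpiLCs it was 177.4 to 185.3 CPM, above every WT library (0.31 ± 0.08, adjusted p = 0.00086, and 0.33 ± 0.07 against WT 1 to 4). In TKO EpiLCs it was 152.2 to 169.0 CPM and did not differ beyond its error (0.12 ± 0.08).

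Otx2 in EpiLCs had the widest spread between genotypes. It was 68.7, 68.8, 46.0 and 63.2 CPM in LBRKO and 60.8, 75.1, 71.8 and 72.5 CPM in TKO, all below the lowest WT library at 92.6 CPM, and 161.8 to 171.7 CPM in QKO, all above the highest WT library at 151.5 CPM. The log2 fold changes were -0.95 ± 0.28 in LBRKO (-1.05 ± 0.12 against WT 5 to 8, which passed), -0.76 ± 0.28 in TKO (-0.65 ± 0.10 against WT 1 to 4) and 0.49 ± 0.28 in QKO (0.60 ± 0.10 against WT 1 to 4). From TKO to QKO EpiLCs Otx2 rose by 1.25 ± 0.32 (adjusted p = 0.00183), the opposite of its fall between the same genotypes in mES cells and 1 of 9 members called where 15.3% of all genes passed. Whether the stages differed in this was not tested. Without LBRKO EpiLC replicate 1 or 2 the fall in LBRKO reached -1.0 and passed.

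Fgf15 and Enpp2 separated the mutants differently. Fgf15 was 24.6, 22.7, 18.4 and 26.4 CPM in LBRKO EpiLCs and 29.0 to 30.2 CPM in TKO, both below every WT library, with log2 fold changes of -0.97 ± 0.14 (-1.13 ± 0.13 against WT 5 to 8, which passed) and -0.61 ± 0.14 (-0.43 ± 0.13 against WT 1 to 4). In LBRKO it also passed without LBRKO EpiLC replicate 4 (-1.04) or WT EpiLC replicate 4 (-1.0). Enpp2 was 36.7, 42.9, 45.9 and 38.2 CPM in TKO EpiLCs, below every WT library (-0.83 ± 0.10, adjusted p = 6.23e-08, and -0.72 ± 0.10 against WT 1 to 4), and 67.7 to 80.4 CPM in LBRKO and 76.5 to 82.4 CPM in QKO, which overlapped WT. Between TKO and QKO EpiLCs Enpp2 differed by just under 2-fold (0.96 ± 0.11, adjusted p = 5.83e-09), and by 1.01 without TKO EpiLC replicate 3. Against WT libraries of the same depth range, 2 members were lower in LBRKO EpiLCs (5.22% of all genes passed), none in TKO (2.15%) and none in QKO (20.6%).

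The remaining members changed little between genotypes in EpiLCs. Pou3f1 was 267.2 to 355.5 CPM in TKO, above every WT library (0.41 ± 0.10, adjusted p = 0.00312), and Zic2 was 263.6 to 293.7 CPM in TKO, also above every WT library (0.34 ± 0.12, adjusted p = 0.0433, and 0.24 ± 0.10 with an adjusted p of 0.135 against WT 1 to 4). In LBRKO Zic2 (-0.39 ± 0.12) and Zic5 (-0.46 ± 0.12) were lower, and neither had an adjusted p under 0.05 against WT 5 to 8 (0.0836 and 0.0846). Lef1 was 163.2 to 223.0 CPM in LBRKO, like WT 5 to 8 (0.00 ± 0.12), and 125.4 to 130.3 CPM in TKO, like WT 1 to 4 (-0.03 ± 0.11), where the values overlapped in both. Sox3, lowered at the naive stage, was 63.3 to 84.7 CPM in TKO (0.35 ± 0.17) and 43.5 to 60.5 CPM in QKO (-0.19 ± 0.17) against 48.4 to 69.1 CPM in WT, and neither difference passed.

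The naive and other lists moved with genotype at this stage. The summed level of the 12 naive genes was 324.5 to 472.0 CPM in LBRKO EpiLCs against 186.8 to 273.7 CPM in WT, with 4 of 12 higher and none lower (5 higher against WT 5 to 8), led by Nr0b1 (2.77 ± 0.18, and 2.76 ± 0.20 against WT 5 to 8) and Esrrb (2.32 ± 0.09 and 2.47 ± 0.10). It was 199.5 to 220.6 CPM in TKO and 234.1 to 275.3 CPM in QKO EpiLCs, and in QKO 5 of 12 were higher and Nanog was lower (-1.40 ± 0.16, and -1.83 ± 0.07 against WT 1 to 4). None of the 14 further formative genes passed in LBRKO or TKO EpiLCs, and in QKO Cdh2 passed as lower against all WT (-1.10 ± 0.24) and not against WT 1 to 4 (-0.83 ± 0.12). Among relatives Sox2 was higher in QKO EpiLCs (1.12 ± 0.09, and 1.31 ± 0.08 against WT 1 to 4) and Tcf7, a TCF factor related to Lef1, lower (-1.09 ± 0.07 and -1.08 ± 0.06). The summed neural genes were 203.0 to 250.4 CPM in WT EpiLCs, where Tubb3 averaged 109.3 CPM and Nes 76.0 CPM. This sum was lower in all mutants, at 148.3 to 165.7 CPM in LBRKO, 156.5 to 196.9 CPM in TKO and 131.7 to 145.2 CPM in QKO. Against all WT, 2, 2 and 4 of 9 were lower and 1 was higher in QKO. Against WT of the same depth range 1 was also higher in LBRKO, and the other counts were the same. Sox1 had a higher mean in LBRKO (49.0 CPM) and TKO (46.8 CPM) than in WT (25.3 ± 7.39 CPM), and 16.3 CPM in QKO. The mesendoderm genes were 28.7 to 31.0 CPM in QKO and 10.7 to 13.3 CPM in LBRKO against 14.9 to 19.7 CPM in WT, with 1 of 7 higher and 1 lower in QKO and 1 lower in LBRKO. Of the endoderm genes 3 of 10 were higher and 3 lower in QKO. Whether cells of these types were present was not tested. The part of such cells or of residual naive RNA in the member levels was not tested either.

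Whether the passage itself differed between a mutant and WT was tested as a difference of log2 fold changes. Sox3 rose more in TKO by 2.63 ± 0.41 (1.91 ± 0.40 with WT 1 to 4) and in QKO by 2.53 ± 0.47 (1.82 ± 0.45), from the lower naive levels given above. Pou3f1 rose more in QKO by 1.55 ± 0.29 (1.31 ± 0.35). Otx2 rose more in LBRKO by 3.04 ± 0.60 (1.44 ± 0.26 with WT 5 to 8). In TKO Otx2 rose less (-1.74 ± 0.41), but with WT 1 to 4 the difference was under 2-fold (-0.87 ± 0.15). In QKO its difference was 0.60 ± 0.42 with all WT, 1.47 ± 0.16 with WT 1 to 4 and -1.0 ± 0.19 with WT 5 to 8. Lef1 rose more in QKO with all WT (1.68 ± 0.57) and not with WT 1 to 4 (0.16 ± 0.28). In TKO Lef1 passed as rising more without WT mES replicate 1, 2, 3 or 4 (1.51 to 1.53), and Pou3f1 without WT mES replicate 1 or 2, TKO mES replicate 2 or 4 or TKO EpiLC replicate 4 (1.0 to 1.06), while neither passed with every library.

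Fgf5 passed in all 3 tests, with 0 or 1 count over the naive libraries of each mutant, so that the fitted sizes are no bounds. Fgf15 rose less in LBRKO (-1.53 ± 0.43, and -2.20 ± 0.50 with WT 5 to 8), and without LBRKO mES replicate 3 the call was lost (-1.32, adjusted p = 0.0757). In LBRKO 2 members were called as rising more and 1 as rising less, where 6.0% of all genes passed (5.3% with WT 5 to 8, with the same numbers of members). In TKO it was 2 and 1 (3.03% of all genes), and 2 and 0 with WT 1 to 4 (2.62%). In QKO it was 4 and 0 (12.6%), also with WT 1 to 4 (12.3%). All comparisons with WT share the WT libraries.

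Levels of different genes were compared as CPM per kb of exon. In WT mES cells Zic2 stood first at 12.7 ± 3.03 CPM per kb, then Zic5 at 4.86 ± 0.887 and Otx2 at 2.16 ± 1.55, and the other 6 had a mean of 1.04 CPM per kb or less. In WT EpiLCs Zic2 was again first (77.5 ± 7.48 CPM per kb), followed by Pou3f1 (58.7 ± 5.11) and Fgf5 (58.3 ± 3.45), which did not differ beyond their spread, and Fgf15 (14.7 ± 2.55) and Enpp2 (12.6 ± 1.47) came last. In QKO EpiLCs Fgf5 (72.1 ± 1.51 CPM per kb) and Zic2 (69.5 ± 4.71) were level within their spread, and Otx2 stood at 39.4 ± 1.08. In LBRKO EpiLCs Otx2 stood at 14.6 ± 2.56, above only Enpp2 and Fgf15.

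Across the 8 groups the order of a gene's levels was not the same for all members. Fgf5 ran from QKO EpiLCs through TKO and WT to LBRKO EpiLCs, with TKO and WT overlapping. Pou3f1 ran from TKO (301.3 ± 39.8 CPM) through QKO (239.1 ± 31.8) and LBRKO (237.1 ± 34.8) to WT EpiLCs (226.1 ± 19.7), with overlap between each neighbouring pair. By their means over all libraries Zic2 and Zic5 shared the order TKO, WT, QKO and LBRKO in EpiLCs, and the means of Zic2 were 281.8 ± 14.2, 223.3 ± 21.6, 200.2 ± 13.6 and 170.4 ± 15.9 CPM. Each neighbouring pair overlapped for Zic5, as did all but TKO and WT for Zic2. With WT 5 to 8 alone Zic5 averaged 115.2 CPM, beside 115.9 CPM in QKO. Among the mutants Lef1 had the order LBRKO, TKO and QKO at both stages, with overlap between TKO and QKO in EpiLCs, and the place of WT depended on the set (1.31 and 7.57 CPM in mES cells and 130.7 and 190.5 CPM in EpiLCs for WT 1 to 4 and WT 5 to 8). In every member the lowest EpiLC group lay above the highest mES group.

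Zic2 and Zic5 moved together over these groups. Their root mean square difference, taken over the 8 group means of log2 CPM after each gene was centred, was 0.198, against 0.454 for Pou3f1 and Fgf15, the next closest members. The ratio of Zic2 to Zic5 per kb of exon was 2.62 ± 0.402 in WT mES cells and 3.02 ± 0.359 in WT EpiLCs, and the group means in mutants ran from 2.14 in TKO mES cells to 3.33 in TKO EpiLCs. The correlation of their log2 CPM was 0.839 over the 20 mES libraries and 0.798 over the 20 EpiLC libraries, where libraries share genotype and depth range. It was not particular to this pair in EpiLCs, where Zic2 and Sox3, a gene of chromosome X, reached 0.878 (0.297 in mES cells). The antisense lncRNA 2610035F20Rik, which overlaps Zic2, reached a mean of 18.5 CPM in WT EpiLCs and 2.85 CPM in WT mES cells. Whether reads were counted by strand is not known here, and reads of Zic2 and of this RNA may not be separated. Antisense neighbours of the other members had at most 2.42 CPM in any group.

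**Figure D4:**
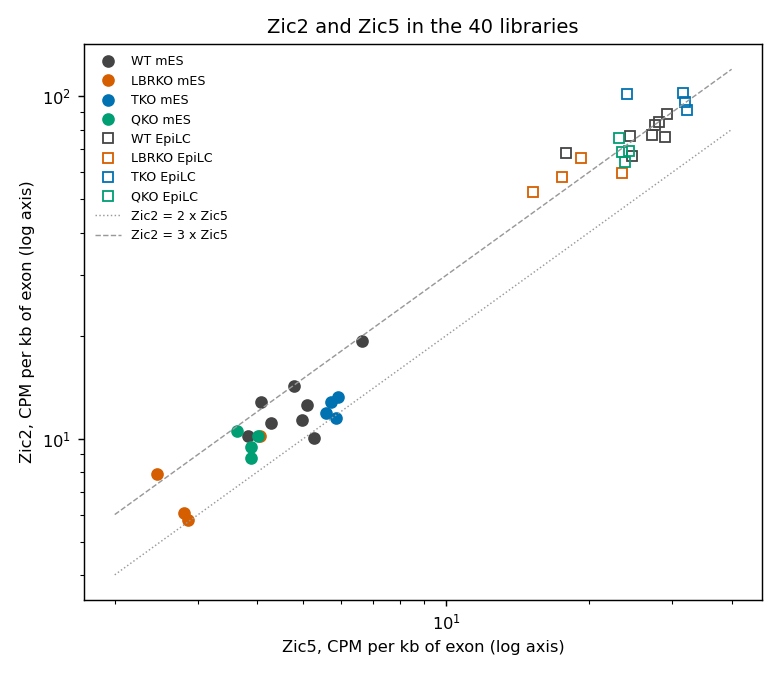
Zic2 against Zic5 in the 40 libraries as CPM per kb of exon on log axes, with filled circles for mES cells and open squares for EpiLCs, colours for genotypes, and lines where Zic2 is 2 or 3 times Zic5. Libraries of both stages lie along the lines, with group mean ratios from 2.14 to 3.33.

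By the same measure, over 14092 genes with at least 1 CPM in some group, the gene nearest to Zic5 was Zic2, and those nearest to Zic2 were Skil (0.169), a SMAD corepressor, and Sall2 (0.181). Fgf5 (0.401) and Enpp2 (0.487) both had Car4, a carbonic anhydrase, as their nearest gene. The log2 CPM of this measure used a prior count of 2. Fgf5, Enpp2 and Car4 averaged 0.0949, 0.0364 and 0.0104 CPM in naive WT, so in mES cells the prior largely set their values. Sox3 was nearest to Aff3 (0.228), Lef1 to Tmem154 (0.363) and Pou3f1 to Irs4 (0.392). Of the 9 members Otx2 lay farthest from its nearest gene, with Duxbl1 at 0.501 and Kctd12b at 0.679. Duxbl1 averaged 1.31 CPM in naive WT, 0.0603 CPM in naive LBRKO and 17.8 CPM in QKO EpiLC libraries, and it belongs to a group of similar genes that can share reads.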

How the data were processed

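Total RNA was sequenced from 40 libraries after ribosomal RNA depletion with a stranded kit. The deposited values are raw gene counts, made by the authors after trimming with cutadapt 2.5, alignment to GRCm39 with STAR 2.7.10a and counting of uniquely mapped reads with featureCounts 1.6.4 (versions per the submitters' processing notes), and the strand setting of that step is not known here. A second deposited count table with multimapped reads served as an alternative, and a table of transposable elements was not used here. Libraries held 22.6 to 48.9 megacounts, and no column was left unmapped. Counts from few reads (Fgf5, Fgf15 and Enpp2 in mES cells) carry counting error that limits them, and intervals (95%, exact) and floors (3 counts over the group) cover counting error only.

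The samples were grouped by the genotype and stage in their labels. One model with a mean for each of 8 groups was fitted to all 40 libraries with edgeR 4.0.16 (R 4.3.3, TMM, filterByExpr, quasi-likelihood F test), and p-values were adjusted by Benjamini-Hochberg over 23399 genes in each of 15 comparisons. The alternatives were RLE size factors, DESeq2 1.42.0, no filter or 1 CPM in 4 libraries, multimapped counting, the replicate number as a block, WT 1 to 4 or WT 5 to 8 alone, only the groups compared, and leaving out each library. The named genes were the 9 members, the up to 4 members per list that passed with the largest changes, and the 2 genes nearest to each member. List genes named for the WT sets, and Zic1, Otx1 and Pax6, were chosen after their values were seen where they fall outside that rule. The members, lists and WT sets were chosen with earlier results of these data known. Lists were further formative genes, family relatives, naive, neural, endoderm, mesendoderm, β-catenin target and FGF/ERK target genes. Places came from GENCODE M39, which matched 56017 of 56748 identifiers. One family relative is not reported here. Promoter sequences were read from the GRCm39 genome. p-values measure the spread between wells. With all 8 WT libraries in the model this spread holds the difference between the WT sets, also where mutants are compared with each other.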

Additional observations from a re-analysis of the deposited data

Results flagged for a closer look

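In 8 of 70 groups of 4 or 8 libraries tested 1 library lay far from the others by Dixon's criterion. Chance flags about 1 in 20 groups, and 3 of the 8, a single count beside 3 libraries at 0, had to be flagged. In mES cells these were Zic2 in WT replicate 7 (55.7 CPM), Pou3f1 in QKO replicate 4 (0.858 CPM) and the single counts of Fgf5 in TKO replicate 4 (0.0365 CPM) and of Fgf5 and Enpp2 in QKO replicate 4 (0.0343 CPM each). In EpiLCs these were Zic5 in WT replicate 8 (87.6 CPM), Zic5 in TKO replicate 1 (117.4 CPM) and Fgf15 in TKO replicate 2 (30.2 CPM).

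In 10 cases the rise from the naive stage had another size in a mutant than in WT, by the test of that difference. On the log2 scale these were Otx2 (3.04) and Fgf15 (-1.53) in LBRKO, Otx2 (-1.74) and Sox3 (2.63) in TKO, and Pou3f1 (1.55), Lef1 (1.68) and Sox3 (2.53) in QKO. Fgf5 was the same case in LBRKO (4.04), TKO (3.17) and QKO (3.29), where these sizes depend on the fit because the naive mutants held 0 or 1 count. With WT replicates 1 to 4 Otx2 in TKO and Lef1 in QKO did not pass.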

How the results depend on the processing

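The count of members called in the 15 comparisons stayed within 1.5 times its value under RLE size factors, DESeq2 and a model of the groups compared alone. It moved in LBRKO against WT mES with WT 1 to 4 (4 called), in TKO against WT mES with multimapped reads (5), in LBRKO against WT EpiLCs with WT 5 to 8 (2), in QKO against TKO EpiLCs with a filter of 1 CPM in 4 libraries (2), and in the passage of TKO without a filter (5) and with WT 5 to 8 (5). Signs reversed for Lef1 in TKO mES (0.09) and in the passage of LBRKO (-1.45) with WT 1 to 4, and for Otx2 in QKO mES (1.39) and in the passage of QKO (-1.0) with WT 5 to 8. The cause was not tested. A further 47 sign changes concerned values called under neither setting.

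Leaving out 1 library at a time gave 3 to 5 called in TKO against WT mES (5 without WT mES 3 or 4), 0 to 1 in LBRKO against WT EpiLCs (1 without WT EpiLC 4 or LBRKO EpiLC 1, 2 or 4), 0 to 2 in QKO against TKO mES (0 without TKO mES 2 or QKO mES 2, 2 without TKO mES 1 or 3), 1 to 2 in QKO against TKO EpiLCs (2 without TKO EpiLC 3) and 3 to 5 in the passage of TKO (5 without WT mES 1 or 2).

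With the replicate number as a block, 1 member was called in LBRKO against WT EpiLCs (Otx2, -1.39) and 1 in TKO against WT EpiLCs (Otx2, -1.20), and the other 13 counts stayed within 1.5 times. Lef1 no longer passed in TKO against WT mES (-0.97) and passed in the passage of TKO (1.19). The numbers were not taken to pair the libraries, since no label ties them and not every pair was over 0.1: the correlation of their deviations ran from -0.262 to 0.578 over 20 pairs of an mES and an EpiLC library of 1 genotype, with 13 over 0.1, and not every library correlated best with its own number.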
